A study of Mus musculus with 11 samples.

Results

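Genes of cholesterol synthesis and fatty acid synthesis were described across 11 libraries of mouse AKP colon cancer organoids, 3-dimensional cultures of tumour epithelium. The genes were taken from a list of 29 names. 28 of them had a row among the 23224 listed genes and all 28 had enough counts to be tested, 20 of 21 in the sterol branch and 8 of 8 in the fatty acid branch. Hmgcs1 was not analysed here. Msmo1 is listed under its older name Sc4mol.

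All 5 groups carried the AKP genotype. The naive organoids (3 libraries) had not been in an animal. Tumour-derived organoids were grown again from primary tumours that formed after naive organoids had been transplanted into the colon of recipient mice through a colonoscope, either immunocompetent C57Bl6 mice (3 libraries) or RAG2KO mice (3 libraries), which cannot rearrange antigen receptor genes and so form no mature T or B cells. These cultures were passaged to leave cancer cells alone. The constitutive SOX17OE line and the inducible SOX17OE line (1 library each) were naive AKP organoids that had received a lentiviral SOX17 construct, under a doxycycline-dependent promoter in the inducible line. The sources used here do not say whether the inducible line was given doxycycline, how old the mice were, which alleles AKP stands for, or whether replicates came from separate cultures or animals. The p-values therefore measure the spread between these samples, which may be technical.

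Cholesterol is built from acetyl-CoA through mevalonate, isoprenoid units and squalene, and a chain of enzymes then turns lanosterol into cholesterol. Fatty acids are built from the same acetyl-CoA, which ATP citrate lyase releases from citrate, with NADPH as reductant. Transcription of both branches is driven by SREBP proteins, membrane-bound factors that are released when the membranes of the endoplasmic reticulum run low in sterol. SREBP2, from Srebf2, mainly serves the sterol genes and SREBP1, from Srebf1, the fatty acid genes. Dividing colon epithelium and its tumours need both products for new membranes.

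Values below are CPM, counts relative to the scaled size of a library, and a gene was called changed when its adjusted p from the quasi-likelihood test of edgeR, with Benjamini-Hochberg adjustment over 13720 tested genes, was under 0.05. Library totals ranged from 14109182 to 22154456 expected counts. Sox17 had 0.214, 0.0438 and 0.0477 CPM in the naive libraries and 12.4 to 74.3 CPM in the 6 tumour-derived libraries. It had 72.7 CPM in the constitutive and 4.78 CPM in the inducible line, so each line labelled as overexpressing stood above all naive libraries. The summed CPM of 7 epithelial markers was 6349 to 11030 in each library. The sum of 7 leukocyte markers was at most 2.43 CPM, that of 4 endothelial markers 1.19 to 9.97 CPM and that of 7 fibroblast markers at most 1.01 CPM, except for 8.93 in RAG2KO replicate 2 and 6.57 in the constitutive line. Of 5 adipocyte markers, Lep was at 0 in each library and Adipoq and Plin1 at or near 0. The summed level of that list was 4.86 to 6.20 CPM in naive, 0.954 to 1.73 in C57Bl6 and 15.1 to 18.8 in RAG2KO libraries, 37.4 CPM in the constitutive and 5.01 in the inducible line, nearly all of it Fabp4 in the RAG2KO libraries and the SOX17OE lines. In bulk samples such as these, a change in the number of cells of a kind and a change in RNA per cell cannot be told apart.

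2 properties of the libraries moved with the groups and are given here because they bear on the gene values. The precursor of ribosomal RNA, Rn45s, held 2.42 to 4.99% of the counts of naive libraries, 2.21 to 3.77% of C57Bl6 and 6.56 to 8.54% of RAG2KO libraries, 6.39% in the constitutive and 3.71% in the inducible line. Transcript length moved with the fold changes. Against naive, the median log2 fold change in RAG2KO libraries was 0.29 over the 2129 tested genes whose longest annotated transcript has up to 1500 bases and -0.23 over the 2664 genes with more than 5000 bases. For the mean of the SOX17OE lines these medians were 0.26 and -0.23, and for C57Bl6 libraries -0.05 and 0.05. The longest transcript had a median of 2727.5 bases for the sterol genes, 5143.5 bases for the fatty acid genes and 3011 bases for the tested genes.

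To show the control regions of genes described below, promoter sequences were taken from RefSeq (GRCm38.p6), as the 250 bases before an annotated start. 16 of the 20 sterol genes and 6 of the 8 fatty acid genes had an entry, some with several starts. Fdps, Fdft1, Sqle, Stard4, Scd1 and Scd2 were not matched. The CCAAT box, which binds the factor NF-Y, a known partner of SREBP, was searched on both strands as CCAAT, which reads ATTGG on the other strand. It was found in 15 of 19 sterol promoters, belonging to 15 of 16 genes, and in 4 of 9 fatty acid promoters, belonging to 3 of 6 genes. Among all 32851 promoters 33.8% held it, and among 13443 promoters of tested genes 35.4%. The GC box GGGCGG, a motif of SP1 factors, was in 16 of 19 sterol and 4 of 9 fatty acid promoters, against 56% of the promoters of tested genes. A sterol regulatory element written as TCACNCCAC was in 0 of 19 and 0 of 9, against 1.05% of all promoters, which says that these letters are not in the window and nothing about binding. Promoters of 5 of the 8 sterol genes with an entry that were called higher in RAG2KO tumour-derived organoids are shown. They were chosen after motifs and values were seen. The first of the 2 starts of Me1, the fatty acid gene with the largest change, is shown as well. Capitals mark the CCAAT box on either strand, and each sequence reads 5′ to 3′ toward the gene.
Cyp51, chr5:4104698-4104947, minus strand: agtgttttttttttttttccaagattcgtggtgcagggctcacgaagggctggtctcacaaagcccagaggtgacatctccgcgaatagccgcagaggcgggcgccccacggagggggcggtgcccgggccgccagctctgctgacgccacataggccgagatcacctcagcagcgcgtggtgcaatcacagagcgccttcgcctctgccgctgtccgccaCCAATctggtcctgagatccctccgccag
Tm7sf2, chr19:6067851-6068100, minus strand: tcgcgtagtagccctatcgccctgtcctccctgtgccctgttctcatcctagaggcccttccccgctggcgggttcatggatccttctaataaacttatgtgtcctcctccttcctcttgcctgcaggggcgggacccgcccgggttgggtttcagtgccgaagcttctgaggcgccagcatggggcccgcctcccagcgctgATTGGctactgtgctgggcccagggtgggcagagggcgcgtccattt
Sc4mol, chr8:64733579-64733828, minus strand: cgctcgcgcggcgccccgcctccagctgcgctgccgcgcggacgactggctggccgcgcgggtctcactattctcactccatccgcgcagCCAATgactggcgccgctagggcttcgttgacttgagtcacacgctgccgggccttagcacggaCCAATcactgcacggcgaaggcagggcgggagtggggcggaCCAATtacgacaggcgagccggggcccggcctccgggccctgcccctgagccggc
Nsdhl, chrX:72918271-72918520, plus strand: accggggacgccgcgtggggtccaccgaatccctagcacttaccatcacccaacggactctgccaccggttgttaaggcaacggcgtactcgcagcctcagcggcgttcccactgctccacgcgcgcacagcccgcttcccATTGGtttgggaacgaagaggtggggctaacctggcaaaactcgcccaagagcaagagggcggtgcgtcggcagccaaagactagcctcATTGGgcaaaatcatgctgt
Sc5d, chr9:42264301-42264550, minus strand: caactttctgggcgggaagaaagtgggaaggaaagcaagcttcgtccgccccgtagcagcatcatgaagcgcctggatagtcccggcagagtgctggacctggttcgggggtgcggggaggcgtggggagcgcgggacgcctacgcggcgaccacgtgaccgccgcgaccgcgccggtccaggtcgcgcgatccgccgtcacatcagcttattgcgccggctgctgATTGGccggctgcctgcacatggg
Me1, chr9:86695915-86696164, minus strand: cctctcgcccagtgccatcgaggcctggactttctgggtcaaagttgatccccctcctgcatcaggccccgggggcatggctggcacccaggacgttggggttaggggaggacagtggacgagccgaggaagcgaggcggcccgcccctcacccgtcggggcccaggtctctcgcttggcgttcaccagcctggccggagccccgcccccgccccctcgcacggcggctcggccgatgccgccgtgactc
Sc4mol has 3 such boxes and Nsdhl 2, the window of Cyp51, Tm7sf2 and Sc5d has 1 each, and the window of Me1 has 0. The window of the other Me1 start has 1. Of the 3 genes not shown, Ebp has 2, Pmvk has 1 at its first start and 0 at its second, and Acat2 has 0, the 1 sterol gene with an entry but no box. Each sterol gene with an entry that was not called in RAG2KO against naive organoids has a box too, from 1 in Lss to 5 in Mvk. A match is a description of the sequence, with no measurement of binding in these data.

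RAG2KO tumour-derived organoids were set against naive organoids to ask what differs after growth in a mouse without mature T and B cells. Several enzymes of the sterol chain were higher in RAG2KO organoids: 9 of 20 sterol genes were called higher and 0 lower, against 16% of tested genes called higher and 13.3% lower. Their median log2 fold change was 0.33, and that of the tested genes 0.02. In the fatty acid branch 1 of 8 genes was called higher, Me1, and 1 lower, Acaca, with a median of -0.08. For 11 of the 20 sterol genes each RAG2KO library lay above each naive library (24.8% of tested genes did so) and for 1 each lay below (22.4%). DESeq2 called 10 sterol genes higher and 0 lower, with 32.8% of tested genes called in either direction. Voom called 10 higher and 1 lower, Dhcr7 (-0.41, adjusted p = 0.0265 in voom), with 39.4% called in either direction. Fdps was called higher by both.

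**Figure D1:**
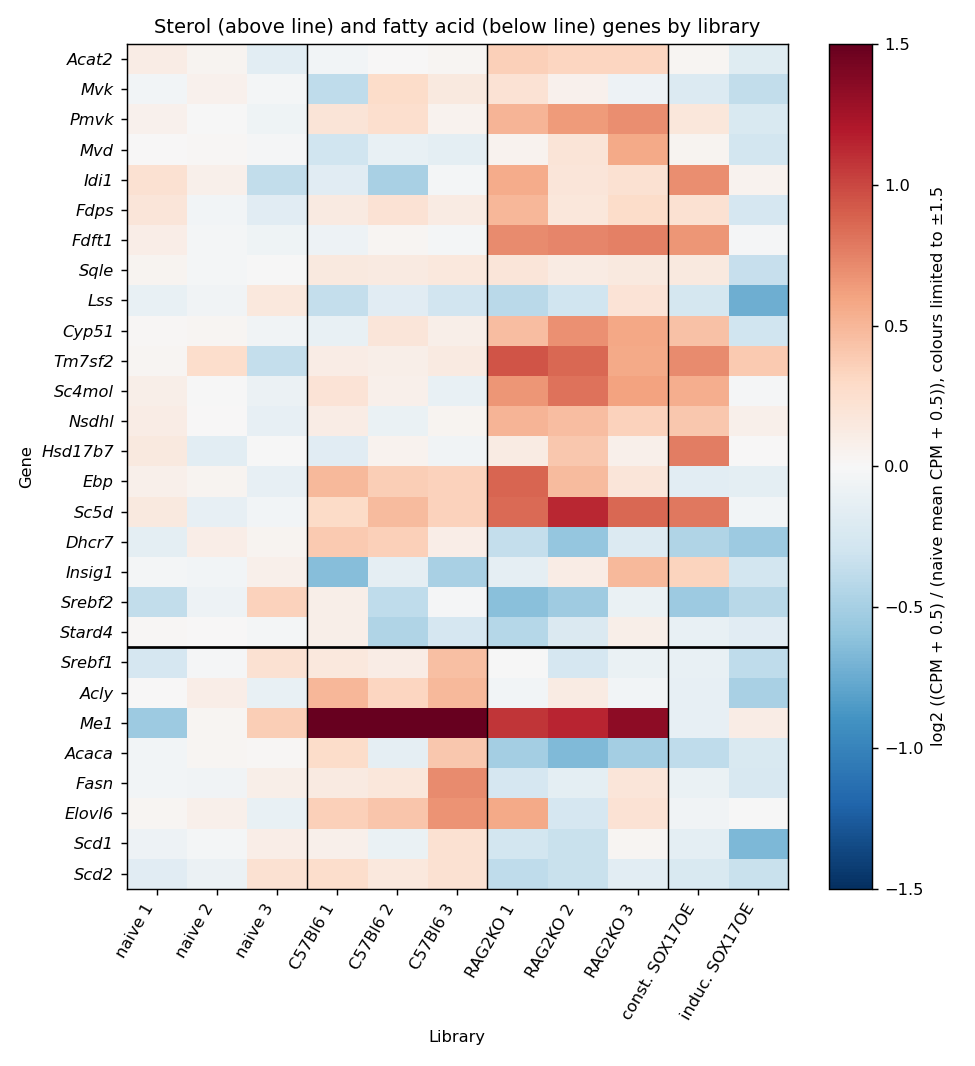
Log2 ratio of (CPM + 0.5) to the naive mean for each of the 28 genes (rows, sterol above the line and fatty acid below it) in each of the 11 libraries (columns), with colours limited to ±1.5. The 3 RAG2KO columns are mostly above naive among the sterol genes, with library medians of 0.41, 0.26 and 0.30, while the 3 C57Bl6 columns have sterol medians of 0.09, 0.07 and 0.03.

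Fdft1, squalene synthase, which commits isoprenoids to sterols, had 273, 249 and 244 CPM in naive libraries and 417, 426 and 430.0 CPM in RAG2KO libraries. The groups did not overlap, and it rose 1.66-fold (log2 fold change 0.73, SE 0.10, adjusted p = 0.00118). Sc5d, the lathosterol desaturase near the end of the chain, had 97.3, 80.5 and 85.0 CPM against 159, 192 and 159.7 CPM. Here too all RAG2KO libraries were higher, with a 1.94-fold rise (0.96, SE 0.13, adjusted p = 9.78e-04). Tm7sf2, a sterol C14 reductase, had 37.6, 44.5 and 28.6 CPM against 71.6, 67.6 and 55.0 CPM and rose 1.75-fold (0.81, SE 0.17, adjusted p = 0.00717). Sc4mol, the C4-methylsterol oxidase, had 340.4, 319 and 300.2 CPM against 506, 564 and 486 CPM. It rose 1.62-fold (0.70, SE 0.12, adjusted p = 0.00351), with no overlap. Cyp51, the lanosterol 14-alpha-demethylase, had 405, 409.6 and 386 CPM against 549.9, 642 and 597 CPM, and rose 1.49-fold (0.58, SE 0.12, adjusted p = 0.00677). These 5 enzymes make squalene or modify the sterol ring.

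Pmvk, phosphomevalonate kinase, was the clearest riser of the mevalonate steps, with 115, 109 and 105 CPM in naive and 156, 171 and 178 CPM in RAG2KO libraries (log2 fold change 0.62, SE 0.11, adjusted p = 0.00351). Its groups did not overlap. The calls of Pmvk, Fdft1, Cyp51, Tm7sf2, Sc4mol and Sc5d remained with each of the 11 libraries left out in turn. 3 further calls depended on single libraries. Nsdhl, the C4 sterol dehydrogenase, rose from 142, 131 and 121 to 187, 182 and 167 CPM (0.44, SE 0.11, adjusted p = 0.017), and its adjusted p was 0.0664 without naive replicate 2, 0.0561 without naive replicate 3 and 0.0504 without RAG2KO replicate 2. Ebp, the sterol isomerase, rose from 66.8, 65.6 and 58.2 to 117, 88.7 and 72.4 CPM (0.55, SE 0.17, adjusted p = 0.0332). The highest RAG2KO value of Ebp, in replicate 1, set much of its size: without that library it was 0.34 (adjusted p = 0.0946), and leaving out any 1 naive library or RAG2KO replicate 2 ended the call too (adjusted p from 0.0629 to 0.0985). Acat2, the cytosolic thiolase that starts the pathway, rose from 290.2, 277 and 242 to 347, 337 and 339 CPM (0.34, SE 0.11, adjusted p = 0.039). Leaving out naive replicate 2 or 3, C57Bl6 replicate 3 or any 1 of the RAG2KO libraries ended that call (adjusted p from 0.058 to 0.1205).

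The other 11 sterol genes were not called in this comparison, with log2 fold changes from -0.40 to 0.33. Early enzymes among them were Mvk, mevalonate kinase (0.07, adjusted p = 0.773), Mvd, the decarboxylase (0.29, 0.145), Idi1, the isoprenoid isomerase (0.33, 0.199), and Fdps, farnesyl diphosphate synthase (0.32, 0.0897). Sqle, squalene epoxidase and a rate-limiting enzyme, had 215, 204 and 207 CPM in naive and 236, 227 and 231 CPM in RAG2KO libraries. These libraries did not overlap, but the difference of 0.15 (SE 0.10) did not pass (adjusted p = 0.262). Lss, lanosterol synthase, had a log2 fold change of -0.14 and Hsd17b7, the 3-ketosterol reductase, of 0.21. Dhcr7, which makes cholesterol itself from 7-dehydrocholesterol, was 1 of 4 sterol genes with a log2 fold change below 0, with 64.1, 75.9 and 72.6 CPM in naive and 55.2, 47.1 and 61.4 CPM in RAG2KO libraries, each RAG2KO value below each naive value (-0.38, SE 0.14, adjusted p = 0.0644). Srebf2, which encodes SREBP2, had -0.40 (SE 0.21, adjusted p = 0.173). Insig1, which holds SREBP in the endoplasmic reticulum, had 0.18 (SE 0.18, adjusted p = 0.480) and Stard4, a carrier that moves cholesterol between membranes, -0.17 (SE 0.17, adjusted p = 0.477).

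In the fatty acid branch Me1, malic enzyme, a source of cytosolic NADPH, rose from 56.7, 84.8 and 108 CPM in naive to 176, 185 and 211 CPM in RAG2KO libraries. All RAG2KO values were above all naive values, a 2.29-fold rise (log2 fold change 1.19, SE 0.24, adjusted p = 0.00655), and the call remained with each library left out. Acaca, acetyl-CoA carboxylase, which makes malonyl-CoA, fell from 80.5, 84.4 and 83.8 to 58.0, 52.2 and 58.3 CPM with no overlap (-0.56, SE 0.14, adjusted p = 0.0171). Leaving out naive replicate 2 (0.0619) or RAG2KO replicate 2 (0.0614) ended the call. The other 6 genes were not called, with log2 fold changes of 0.01 for Acly, -0.06 for the fatty acid synthase Fasn, -0.11 for Srebf1, 0.21 for the elongase Elovl6, -0.19 for Scd1 and -0.29 for Scd2. Scd1 and Scd2, stearoyl-CoA desaturases of closely similar sequence, had fractional counts in 11 and 10 libraries, so that reads may have been divided between them. Acat2, Fdft1 and Lss had fractional counts in 11 libraries too, so such counts do not single out this pair.

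Both library properties touch these calls. With an offset that removes the trend of each library with transcript length, a choice made after seeing the data, 7 of 20 sterol genes were called higher and 0 lower, with a median of 0.30. Over all tested genes 15.2% were then called higher and 11.7% lower, with a median of 0.02. Acat2 (adjusted p = 0.0509) and Ebp (0.0734) were no longer called, while Fdft1 (log2 fold change 0.79), Sc5d (1.09) and Cyp51 (0.65) had larger fold changes than without it. The value of Pmvk went from 0.62 to 0.40 (adjusted p = 0.0203), and Tm7sf2 (0.66), Sc4mol (0.61) and Nsdhl (0.37) were also smaller but still called. Acaca then had -0.24 (adjusted p = 0.184) and Me1 1.22. With a covariate for Rn45s (log2 of its share), also chosen after seeing the data, 0 of 28 genes were called and 148 of 13720 in all. The sterol median was then 0.25 with 15 of 20 genes above 0, and the median SE of the sterol genes went from 0.138 to 0.263. Recipient group and Rn45s share cannot be told apart with these libraries, since each RAG2KO library had a higher share than each naive and C57Bl6 library.

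**Figure D2:**
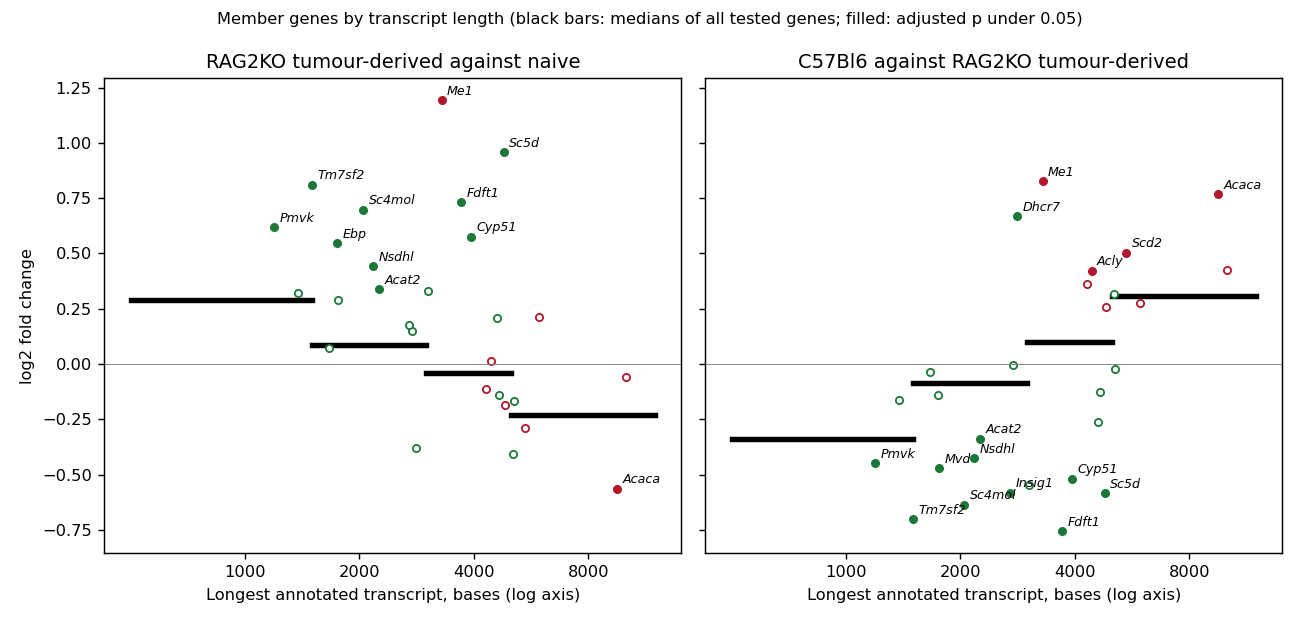
Log2 fold change of each of the 28 genes against the length of its longest annotated transcript (log axis), with sterol and fatty acid genes in separate colours, filled where the adjusted p was under 0.05. Black bars are medians of all tested genes in 4 length classes, which for RAG2KO against naive run from 0.29 for the shortest to -0.23 for the longest.

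C57Bl6 tumour-derived against naive organoids asks the same of growth in an immunocompetent mouse. Sterol genes as a group stayed near their naive level: edgeR called 0 of 20 higher and 0 lower, with 3 at an unadjusted p under 0.05 (30.2% of tested genes were), while 9.5% of tested genes were called higher and 5.85% lower. DESeq2 called 0 and voom called 2, Sc5d higher and Insig1 lower. The sterol median was 0.03, and 0.02 over the tested genes. The fatty acid genes were all above 0, from 0.07 for Scd1 to 2.02 for Me1, with a median of 0.31, and 2 of 8 were called higher. For 4 fatty acid and 4 sterol genes each C57Bl6 library lay above each naive library (19.9% of tested genes), and for 3 sterol genes each lay below (16.9%).

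Me1 had 391, 380.3 and 243 CPM in C57Bl6 libraries against 56.7, 84.8 and 108 in naive. This was a 4.06-fold rise (log2 fold change 2.02, SE 0.25, adjusted p = 7.62e-04), which remained called with each library left out, with the length offset and with the Rn45s covariate (1.97). Acly, ATP citrate lyase, had 395, 350.5 and 391 CPM against 280.3, 301 and 259 CPM with no overlap (0.44, SE 0.11, adjusted p = 0.0278). This call was lost when naive replicate 1, 2 or 3 or C57Bl6 replicate 1 or 3 was left out (adjusted p from 0.065 to 0.091). Elovl6, which extends palmitate, had 104, 108 and 129.8 CPM against 82.5, 85.7 and 74.7 CPM. Although these libraries did not overlap, the difference of 0.49 (SE 0.19) did not pass (adjusted p = 0.113), except without RAG2KO replicate 2, in a fit of the naive and C57Bl6 libraries alone and in voom. Fasn had 285, 292 and 425 against 252, 251 and 275 CPM, C57Bl6 replicate 3 being the highest (0.37, SE 0.18, adjusted p = 0.192). Voom called 6 of the 8 fatty acid genes higher and 29.8% of tested genes in either direction, 4086 genes where edgeR called 2106.

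Sc5d had 107, 122 and 111 CPM in C57Bl6 libraries, all above the naive values, with a log2 fold change of 0.37 (SE 0.13, adjusted p = 0.0743). Ebp had 89.3, 82.4 and 80.9 CPM, also all above naive (0.41, SE 0.17, adjusted p = 0.128). Insig1, with 168, 237 and 186 CPM against 255, 254 and 274, lay below naive in each library (-0.41, SE 0.18, adjusted p = 0.151). Fdft1 had 243, 261 and 250.1 CPM, which overlapped the naive values (-0.02, SE 0.10, adjusted p = 0.910). Idi1 lies on chromosome 13, whose 504 tested genes lay below the naive mean in C57Bl6 replicate 2, by a median log2 difference of -0.68. In the other 10 libraries this median was -0.18 to 0.07. Idi1 had its lowest value, 303 CPM, in that library, against 379 and 417 CPM in the other C57Bl6 replicates.

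**Figure D3:**
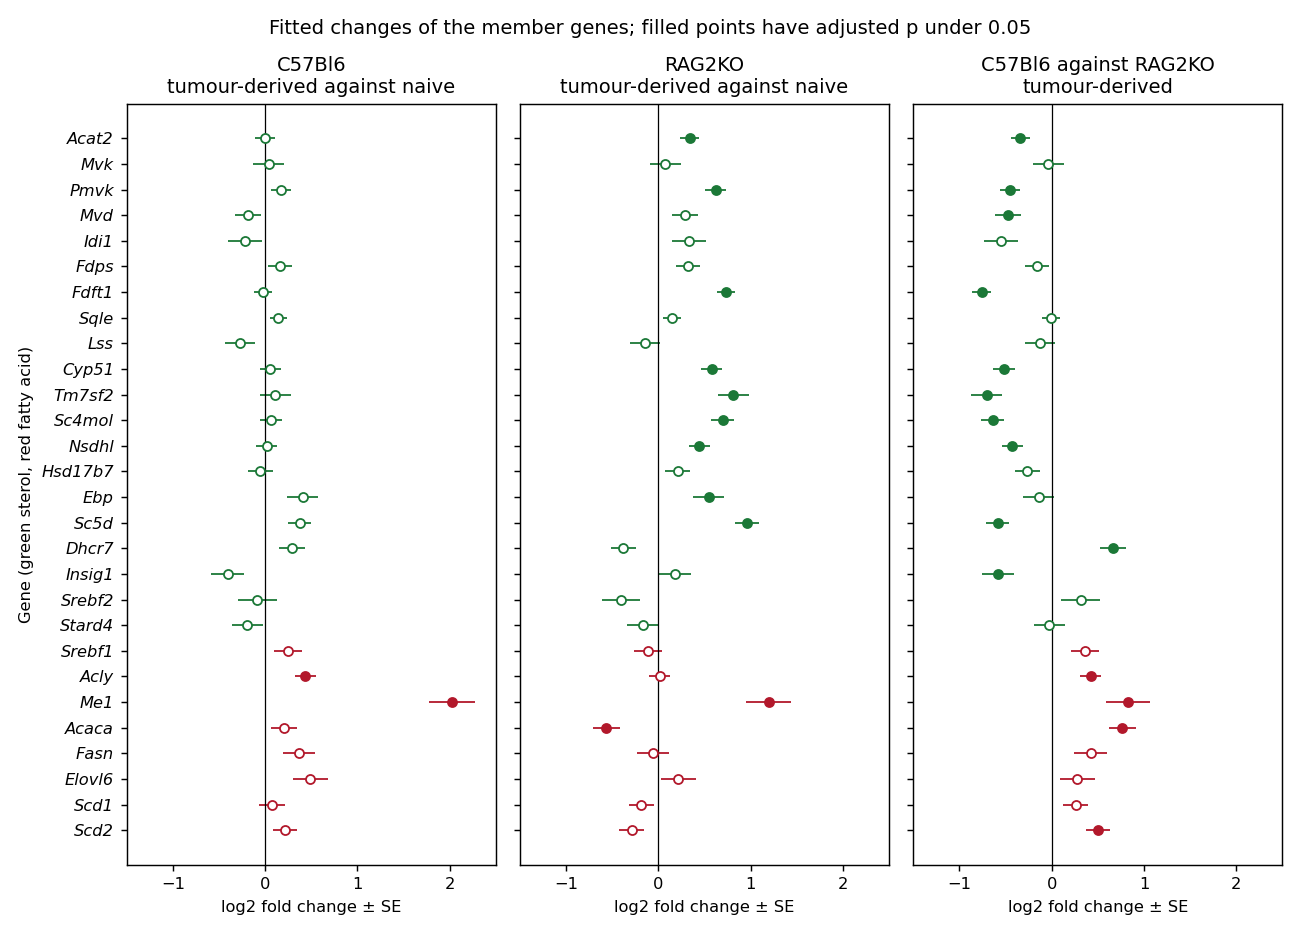
Fitted log2 fold change with its SE for the 28 genes (rows) in the comparisons among naive, C57Bl6 and RAG2KO organoids (panels), filled where the adjusted p was under 0.05. Filled sterol points lie above 0 for RAG2KO against naive (9 genes) and mostly below 0 for C57Bl6 against RAG2KO (10 lower, 1 higher), and there are none for C57Bl6 against naive.

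Comparing the tumour-derived groups directly tests whether the changes from naive differ between recipients, since the naive libraries enter both sides equally. The 2 branches went opposite ways: 10 of 20 sterol genes were lower and 1 higher in C57Bl6 than in RAG2KO organoids, with a median of -0.38, and 4 of 8 fatty acid genes were higher and 0 lower, with a median of 0.42. Of the tested genes 24% were called, 12.2% higher and 11.8% lower, with a median of 0.0011. For 12 sterol genes each C57Bl6 library lay below each RAG2KO library (19.4% of tested genes) and for 1 above (20.4%), and for 5 fatty acid genes each lay above.

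Fdft1 had 243, 261 and 250.1 CPM in C57Bl6 and 417, 426 and 430.0 CPM in RAG2KO libraries, groups far apart next to their spread (log2 fold change -0.76, SE 0.10, adjusted p = 0.00261). Sc4mol (369, 337 and 295 against 506, 564 and 486 CPM) was lower in each C57Bl6 library (-0.64, SE 0.12, adjusted p = 0.00745). Tm7sf2 had 39.8, 39.2 and 40.5 against 71.6, 67.6 and 55.0 CPM (-0.70, SE 0.17, adjusted p = 0.0164). Sc5d had -0.58 (SE 0.13, adjusted p = 0.0112) and Cyp51 -0.52 (SE 0.12, adjusted p = 0.0135). Dhcr7 was the 1 sterol gene called higher, with 92.9, 90.9 and 76.2 CPM in C57Bl6 against 55.2, 47.1 and 61.4 CPM in RAG2KO libraries (0.67, SE 0.14, adjusted p = 0.0096). These 6 calls, and that of Acaca below, remained with each of the 11 libraries left out.

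The other called sterol genes were lower in C57Bl6 by smaller or less stable amounts. They were Pmvk (log2 fold change -0.45), Nsdhl (-0.42), Mvd (-0.47), Insig1 (-0.58) and Acat2 (-0.34). Pmvk was not called without C57Bl6 replicate 3 (adjusted p = 0.0679) or RAG2KO replicate 3 (0.0556). Nsdhl was not called without C57Bl6 replicate 2 or 3 or RAG2KO replicate 1 or 2 (0.058 to 0.0654). Mvd had its highest value, 227 CPM, in RAG2KO replicate 3 and Insig1 likewise, 365 CPM. Without that library they had -0.31 (0.1087) and -0.40 (0.1252). Both calls ended as well without naive replicate 2, C57Bl6 replicate 1 or 3 or RAG2KO replicate 2, that of Mvd without C57Bl6 replicate 2 and that of Insig1 without naive replicate 1 (0.0511 to 0.111). Acat2 was called in 4 of the 11 fits with a library left out, failing without naive replicate 2 or any 1 tumour-derived library (0.0762 to 0.104). Idi1 had -0.55 (SE 0.18, adjusted p = 0.0552) and passed with upper quartile scaling (0.029), DESeq2 size factors (0.0463) and 5 other alternatives. Mvk (-0.04), Fdps (-0.16), Sqle (-0.0047), Lss (-0.13), Hsd17b7 (-0.26), Ebp (-0.14), Srebf2 (0.32) and Stard4 (-0.02) were not called.

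In the fatty acid branch Acaca had 101, 75.5 and 110.3 CPM in C57Bl6 against 58.0, 52.2 and 58.3 CPM in RAG2KO libraries, with no overlap (log2 fold change 0.77, SE 0.14, adjusted p = 0.00667). Me1 was 1.77-fold higher in C57Bl6, with each of its libraries above each RAG2KO library (0.83, SE 0.24, adjusted p = 0.0329). Acly had 395, 350.5 and 391 against 272, 304 and 272 CPM (0.42, SE 0.11, adjusted p = 0.0245). Scd2, 1 of the desaturase pair, had 1660.2, 1541 and 1615 against 1060.1, 1093 and 1242 CPM (0.50, SE 0.13, adjusted p = 0.023). The calls of Me1, Acly and Scd2 rested on few libraries. Me1 failed without naive replicate 2, C57Bl6 replicate 1 or 2 or any 1 RAG2KO replicate (0.054 to 0.0861), Acly without C57Bl6 replicate 1 or 3 or RAG2KO replicate 1 or 3 (0.0586 to 0.077) and Scd2 without C57Bl6 replicate 1 or 3 or RAG2KO replicate 1 or 2 (0.0565 to 0.0627). Srebf1 (0.36, adjusted p = 0.105), Fasn (0.42, 0.102), Elovl6 (0.28, 0.306) and Scd1 (0.26, 0.185) were not called.

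Transcript length moved with this comparison as well, with medians of -0.34 for genes of up to 1500 bases and 0.31 for those over 5000 bases. With the length offset 8 sterol genes were called lower and 1 higher, against 10.1% of tested genes lower and 9.58% higher. Fdft1 (log2 fold change -0.84), Cyp51 (-0.62), Tm7sf2 (-0.50), Sc4mol (-0.55), Nsdhl (-0.35), Sc5d (-0.76), Insig1 (-0.58) and Dhcr7 (0.67) kept their calls, Idi1 (-0.57, adjusted p = 0.0494) gained 1, while Acat2 (-0.28, adjusted p = 0.06), Pmvk (-0.18, adjusted p = 0.243) and Mvd (-0.34, adjusted p = 0.109) lost theirs. In the fatty acid branch 0 of 8 were called, with a median of 0.25: Acaca had 0.40 (adjusted p = 0.053), Me1 0.78 (0.0505), Acly 0.28 (0.078) and Scd2 0.27 (0.0964). With the Rn45s covariate 0 of 28 genes were called and 2 of 13720 in all. The sterol median was then -0.24 and its median SE went from 0.138 to 0.304.

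**Figure D4:**
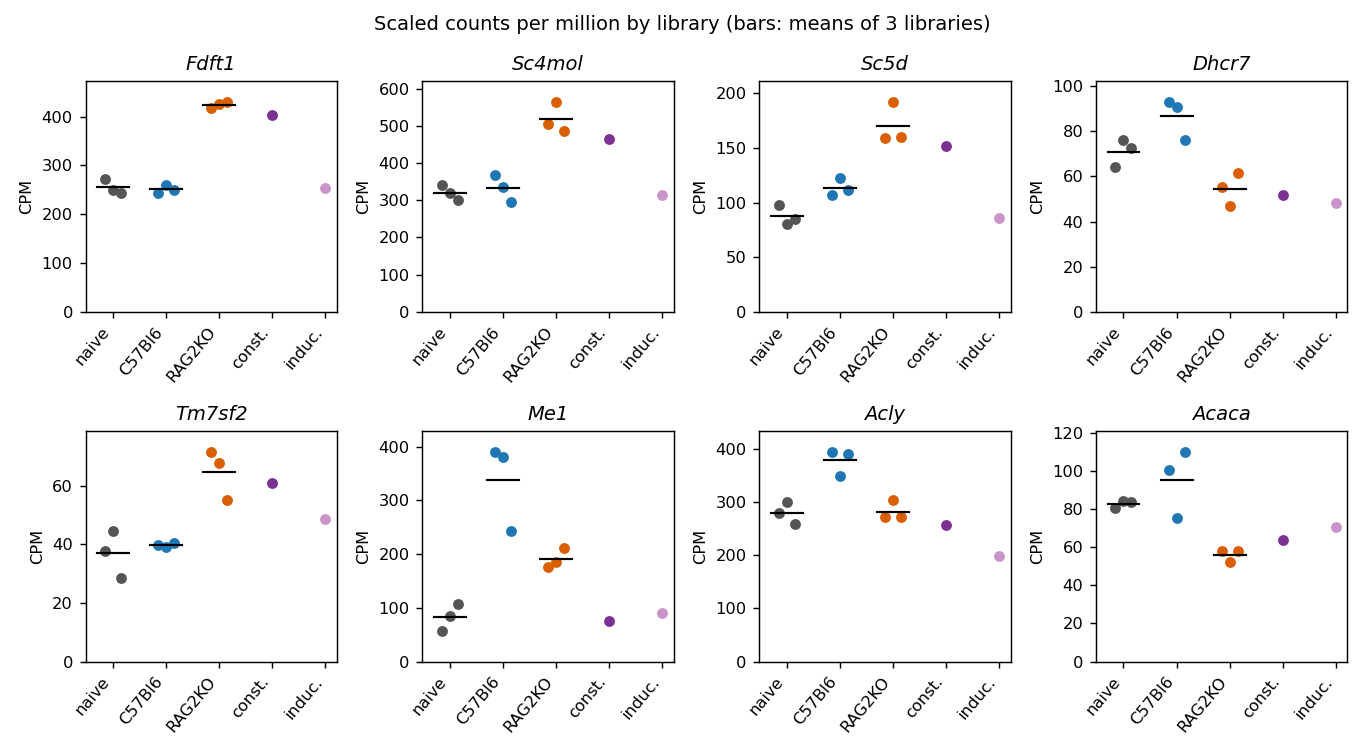
CPM of Fdft1, Sc4mol, Sc5d, Dhcr7, Tm7sf2, Me1, Acly and Acaca in each library (points) by group, with bars at the means of the groups of 3. Fdft1 and Sc5d lie higher in the 3 RAG2KO libraries and the constitutive line than in the naive libraries, whereas Me1 lies highest in the C57Bl6 libraries.

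The SOX17OE lines were set against naive organoids in culture. No line with an empty lentiviral construct is among the samples, so SOX17 and the construct cannot be told apart. The mean of both lines against naive gave 0 of 20 sterol and 0 of 8 fatty acid genes called by edgeR, with 6 and 2 at an unadjusted p under 0.05 (30.9% of tested genes were), while 6.77% of tested genes were called higher and 5.92% lower. DESeq2 called 3 sterol genes, Fdft1 and Tm7sf2 higher and Dhcr7 lower, and 2654 genes in all. Voom called 5 sterol genes, Fdft1, Hsd17b7 and Sc5d higher and Lss and Dhcr7 lower, and 2 fatty acid genes, Acly and Scd1, lower, with 27.9% of tested genes called. The medians were -0.02 and -0.27. Both lines lay above all naive libraries for 1 sterol gene (25.3% of tested genes) and below for 6 sterol and 5 fatty acid genes (23%). The lines themselves differed, and each has no replicate.

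In the constitutive line 13 of 20 sterol genes lay above all 3 naive libraries and 6 below (38.8% and 36.3% of tested genes did so). In the inducible line 1 lay above and 13 below (37.1% and 34.1%). The median log2 difference of the sterol genes from the naive mean was 0.20 in the constitutive and -0.20 in the inducible line. Fdft1 had 403 CPM in the constitutive line, close to the RAG2KO values, and 253 CPM in the inducible line, within the naive range. Sc5d had 152 and 85.4 CPM, Sc4mol 465 and 315 CPM, and Cyp51 543 and 326 CPM, in the same order. Idi1 had its highest level of all 11 libraries, 691 CPM, in the constitutive line, and Hsd17b7 likewise, 81.0 CPM. Lss and Sqle had their lowest level in the inducible line, 97.1 and 164 CPM.

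Dhcr7 had 51.5 CPM in the constitutive and 48.3 CPM in the inducible line, both below the naive values of 64.1 to 75.9 CPM (log2 fold change of the mean -0.51, SE 0.16, adjusted p = 0.0608). Tm7sf2 had 60.9 and 48.5 CPM, both above naive (0.56, SE 0.19, adjusted p = 0.0746). With the inducible line left out, the constitutive line alone had log2 fold changes of 0.66 for Fdft1, 0.78 for Hsd17b7 and 0.79 for Sc5d. Sizes alone are given, since this line is 1 library. Without the constitutive line Fdft1 was at -0.01 and Sc5d at -0.04. Hsd17b7 had 47.4 CPM in the inducible line, within the naive range of 42.2 to 52.4 CPM. With the length offset Fdft1 was called (0.38, adjusted p = 0.0488). Without RAG2KO replicate 3 Lss was called lower (-0.50, adjusted p = 0.0466).

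The fatty acid genes had a median log2 difference from the naive mean of -0.12 in the constitutive and -0.29 in the inducible line. 5 of 8 in the constitutive and 6 of 8 in the inducible line lay below all naive libraries (36.3% and 34.1% of tested genes did so). In either line 0 lay above (38.8% and 37.1% of tested genes). Acly had 257 and 199.8 CPM in the constitutive and inducible lines against 259 to 301 CPM in naive (log2 fold change of the mean -0.31, SE 0.13, adjusted p = 0.134), and Scd1 169 and 117 CPM against 178 to 200.2 CPM (-0.41, SE 0.15, adjusted p = 0.104). Me1, high in both tumour-derived groups, had 76.2 and 89.7 CPM, within the naive range (-0.0089, SE 0.27, adjusted p = 0.995). Both lines also had the length trend, with medians of 0.19 and 0.28 for genes of up to 1500 bases and -0.15 and -0.23 for those over 5000 bases in the constitutive and inducible line. With the length offset the fatty acid median of the mean of both lines went from -0.27 to -0.09.

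**Figure D5:**
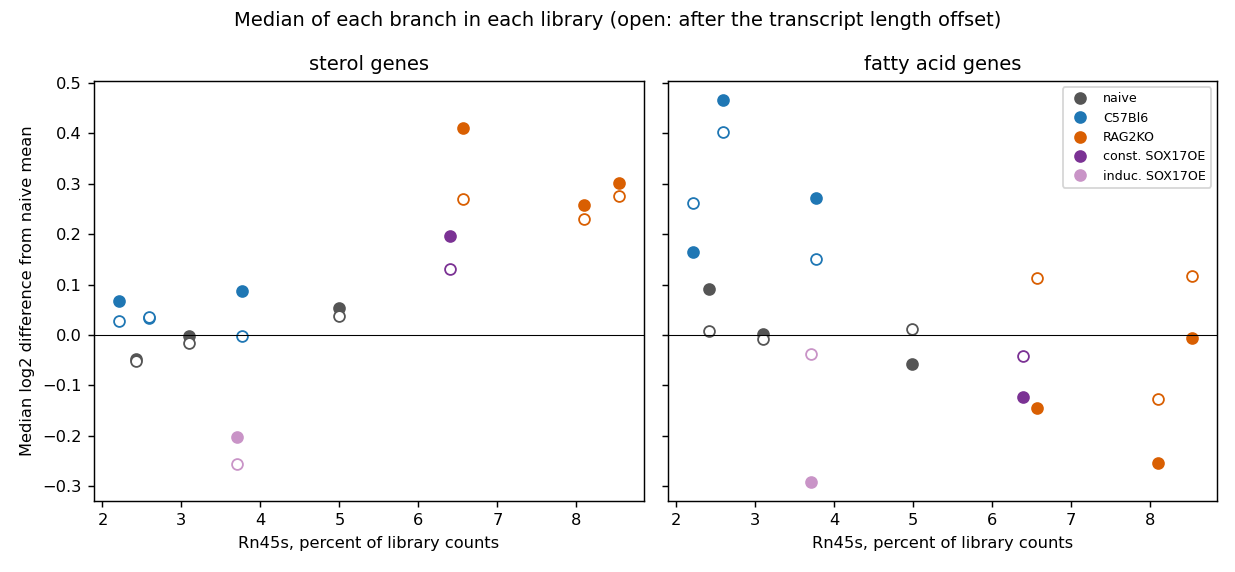
Median log2 difference from the naive mean over the 20 sterol genes (left) and the 8 fatty acid genes (right) in each library, against the percentage of its counts taken by Rn45s; open symbols are after the transcript length offset. The RAG2KO libraries, at 6.56 to 8.54% Rn45s, have sterol medians of 0.26 to 0.41, and the inducible line, at 3.71%, has -0.20.

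The genes around the pathway were counted by list. Their counts stand beside the shares of all tested genes: 9.5% called higher and 5.85% lower in C57Bl6 against naive, 16% and 13.3% in RAG2KO against naive, 12.2% and 11.8% in C57Bl6 against RAG2KO, and 6.77% and 5.92% for the mean of both SOX17OE lines. Among 9 other sterol enzymes and SREBP regulators, 1 was called higher and 2 lower in C57Bl6 against naive, 0 and 3 in RAG2KO against naive, 2 and 0 in C57Bl6 against RAG2KO, and 0 and 2 for the mean of both SOX17OE lines. Acat1, the mitochondrial thiolase, was 1 of the 2 that fell in C57Bl6 organoids (log2 fold change -0.72, SE 0.14, adjusted p = 0.00873). Erlin1, a protein of endoplasmic reticulum lipid rafts, fell in RAG2KO organoids from 49.2, 41.8 and 50.1 to 17.3, 17.1 and 19.7 CPM, with no overlap (-1.38, SE 0.21, adjusted p = 0.00184). It was the other gene that fell in C57Bl6 organoids, to 34.9, 19.4 and 21.7 CPM. In RAG2KO against naive Lbr, a receptor of the nuclear lamina that also acts as sterol C14 reductase like Tm7sf2, fell as well (-0.83, SE 0.18, adjusted p = 0.00859). Erlin1 (18.9 CPM in the constitutive and 29.1 in the inducible line) and Lbr (64.1 and 105 CPM) were the 2 called lower for the mean of the SOX17OE lines. Scap (0.65), which escorts SREBP, and Mbtps1 (0.62), which cleaves it, were higher in C57Bl6 than in RAG2KO organoids, with adjusted p of 0.0129 and 0.00796. The calls of Acat1 in C57Bl6, of Erlin1 and Lbr in RAG2KO against naive, and of Scap and Mbtps1 remained with each library left out. Those of Erlin1 in C57Bl6 and for the SOX17OE lines each ended in 4 of 11 such fits, and that of Lbr for the lines in 2.

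Of 17 tested genes of sterol uptake, storage and export, 4 were called higher and 1 lower in C57Bl6 (9.5% and 5.85% of tested genes) and 5 and 1 in RAG2KO against naive (16% and 13.3%). Npc2, which carries cholesterol out of lysosomes, had 192, 187 and 179 CPM in naive, 322, 397 and 367 CPM in RAG2KO and 209, 179 and 182 CPM in C57Bl6 libraries. It rose in RAG2KO organoids (log2 fold change 0.96, SE 0.12, adjusted p = 7.64e-04) and was higher there than in C57Bl6 (-0.93 for C57Bl6 against RAG2KO, SE 0.12, adjusted p = 0.00252). It also rose for the mean of the SOX17OE lines (0.75, SE 0.13, adjusted p = 0.0101), a call that ended without the constitutive line (0.46, adjusted p = 0.186). Lipa, the lysosomal lipase that frees cholesterol from its esters, fell in both tumour-derived groups, from 11.6, 10.2 and 12.9 CPM in naive to 3.20, 2.13 and 2.73 CPM in C57Bl6 (-2.10, SE 0.27, adjusted p = 9.26e-04) and 2.83, 4.90 and 4.24 CPM in RAG2KO libraries (-1.53, SE 0.26, adjusted p = 0.00318). Nr1h2, a receptor for oxidised sterols, rose in RAG2KO (0.72, adjusted p = 0.00446). Abca1, a sterol exporter, had 0.0477 to 0.0876 CPM in naive libraries, from 1 or 2 counts each. It had 0.0561 to 0.859 CPM in C57Bl6 and 1.95 to 2.74 CPM in RAG2KO libraries. Mylip and Lpcat3 were among the 4 genes called higher in C57Bl6 against naive. The call of Mylip, which had 6 to 13 counts in naive libraries, ended without naive replicate 2 (adjusted p = 0.0675) or 3 (0.054). Activity of the receptor was not tested. The difference between C57Bl6 and RAG2KO for this list was 1 called higher and 2 lower, and for the mean of both SOX17OE lines against naive 1 and 1.

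Among 22 tested genes of other fatty acid and lipid assembly steps, 0 were called higher and 1 lower in C57Bl6, 2 and 3 in RAG2KO and 3 and 0 for the mean of both SOX17OE lines against naive, and 2 and 3 in C57Bl6 against RAG2KO. In either direction 15.3%, 29.2%, 12.7% and 24% of tested genes were called in these comparisons, in that order. Acsl3, a ligase that activates fatty acids at lipid droplets, rose in RAG2KO organoids (log2 fold change 0.53, SE 0.13, adjusted p = 0.0156; not called without naive replicate 2, 0.0754, or RAG2KO replicate 2, 0.0552) and was lower in C57Bl6 than in RAG2KO (-0.73, SE 0.13, adjusted p = 0.00581). Gpam, which starts triglyceride assembly, fell in RAG2KO (-1.10, SE 0.20, adjusted p = 0.00431). Of 7 genes of NADPH supply, 0 were called in C57Bl6 and 1, Idh1, was called higher in RAG2KO against naive (0.37, SE 0.13, adjusted p = 0.0492). Idh1 was not called without any 1 naive library, C57Bl6 replicate 1 or 3 or RAG2KO replicate 1 or 2 (0.051 to 0.133). In C57Bl6 against RAG2KO 0 of the 7 were called higher and 2 lower, Idh1 and Pgls (12.2% and 11.8% of tested genes). Each of these 2 calls ended in 3 of the 11 fits with a library left out. For the mean of both SOX17OE lines 0 of the 7 were called.

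Fatty acid oxidation, the opposite route, had 1 of 21 genes called higher and 6 lower in C57Bl6 against naive (9.5% and 5.85% of tested genes), with a median of -0.37, and 3 and 4 in RAG2KO (16% and 13.3%), with a median of -0.04. The 1 called higher in C57Bl6 was Angptl4, which is not an enzyme of oxidation. It had at most 0.143 CPM in naive and 2.53 to 6.71 CPM in C57Bl6 libraries, and was also 1 of the 3 called higher in RAG2KO. Directly compared, 0 were higher and 3 lower in C57Bl6 (12.2% and 11.8%). Slc25a20, the carnitine carrier of mitochondria, had 23.3, 20.8 and 23.8 CPM in naive, 13.3, 13.9 and 16.1 CPM in C57Bl6 and 30.5, 30.1 and 34.6 CPM in RAG2KO libraries. It was lower in C57Bl6 than in naive (log2 fold change -0.65, SE 0.13, adjusted p = 0.0103) and than in RAG2KO organoids (-1.13, SE 0.14, adjusted p = 0.00183), both with each library left out. Acadm, medium-chain acyl-CoA dehydrogenase, and Ehhadh, of peroxisomal oxidation, were also lower in C57Bl6 than in RAG2KO (-0.59 and -1.23, adjusted p = 0.00457 and 0.00941). For the mean of the SOX17OE lines 1 was called higher, Slc25a20 (0.75, SE 0.15, adjusted p = 0.014), which missed the threshold without naive replicate 2 (0.0635) or the constitutive line (0.129).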

How the data were processed

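Poly(A) RNA was isolated with the Ambion PureLink kit and made into libraries by the NEBNext Ultra II Directional method, per the labels' protocols. The deposited table holds expected counts per gene name, made by the authors with Bowtie, RSEM and the mm9 genome, per the submitters' processing notes; the sources used here give no versions, annotation or strand setting. Expected counts were rounded, filtered with filterByExpr, which left 13720 of 23224 genes, scaled by TMM, and modelled by quasi-likelihood (robust) in edgeR 4.0.16 (R 4.3.3) over 11 libraries in 5 groups. Tests were two-sided, a call is an adjusted p under 0.05, and the SE was derived from the log2 fold change and the F statistic. A SOX17OE library, 1 per line, was assumed to vary like the other groups. The fit was also run on counts simulated from its own fitted spread. These held neither the length trend nor the Rn45s difference between groups, so they cannot show how those bear on the calls.

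The members and gene lists were chosen with earlier results of these data known. A few genes of 1 pathway list are not reported here. Named genes are all members and at most the first 4 called of each other list by adjusted p; Fabp4 and the other markers with values were chosen after their values were seen. Transcript lengths are the longest in the GENCODE annotation, matched by gene name for 13525 tested genes and for 28 of 28 members. Alternatives were DESeq2 size factors, upper quartile scaling, no filter, 1 CPM in 3 libraries, DESeq2 1.42.0, voom of limma 3.58.1, the compared groups alone, a replicate block and each library left out. A Rn45s covariate and a length offset were added after seeing the data. Replicates of 1 group were not identical.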

Additional observations from a re-analysis of the deposited data

Results flagged for a closer look

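The changes from naive differed between the recipient groups for 15 of the 28 genes, by the direct test of C57Bl6 against RAG2KO organoids with edgeR, which is a test of the difference between the 2 changes. In log2 units, the change in C57Bl6 minus the change in RAG2KO organoids was -0.34 for Acat2, -0.45 for Pmvk, -0.47 for Mvd, -0.76 for Fdft1, -0.52 for Cyp51, -0.70 for Tm7sf2, -0.64 for Sc4mol, -0.42 for Nsdhl, -0.58 for Sc5d and -0.58 for Insig1. It was 0.67 for Dhcr7, 0.42 for Acly, 0.83 for Me1, 0.77 for Acaca and 0.50 for Scd2. Of all tested genes 24% differed by the same test. The part of Rn45s share and transcript length in these differences is given with the values in the report.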

How the results depend on the processing

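Rn45s share and transcript length moved with the RAG2KO group. With 3 libraries a group and 1 for each SOX17OE line, the number of libraries limits the precision. With the Rn45s covariate, added after seeing the data, 148 genes, 0 sterol and 0 fatty acid genes were called for RAG2KO against naive, 2, 0 and 0 for C57Bl6 against RAG2KO, and 267 genes for the mean of both SOX17OE lines, where 1741 were called without it. With the length offset, also added then, fatty acid calls numbered 1 for RAG2KO against naive and 0 for C57Bl6 against RAG2KO, and 1 sterol gene was called for the mean of the SOX17OE lines. Beyond these 2, the sterol calls of the RAG2KO comparisons kept within 1.5 times of their number under each other scaling, filter, tool and grouping. Upper quartile scaling left 1 of 4 fatty acid calls in C57Bl6 against RAG2KO. DESeq2 called 2654 genes and 3 sterol genes for the mean of the SOX17OE lines, and voom 3825 genes, 5 sterol and 2 fatty acid genes. Voom called 4086 genes, 2 sterol and 6 fatty acid genes for C57Bl6 against naive. Taking the SOX17OE lines as 2 samples of 1 group gave 864 called genes.

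With a library left out, 1030 to 2328 genes and 1 to 3 fatty acid genes were called for C57Bl6 against naive, and 2041 to 4184 genes, 6 to 9 sterol and 1 to 2 fatty acid genes for RAG2KO against naive. For C57Bl6 against RAG2KO these were 1857 to 3311, 6 to 12 and 1 to 4. For the mean of the SOX17OE lines they were 85 to 1931, 0 to 3 and 0, the lowest number of genes without the constitutive line. Which libraries ended the calls of single genes is given with each gene above.

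The samples were not treated as paired by replicate number. Deviations of same-numbered libraries correlated from -0.19 to 0.18, and those of differently numbered libraries from -0.25 to 0.17. With 3 libraries a group these values cannot settle whether the numbers pair samples. A replicate block in the 9 libraries with 3 replicates gave 1 fatty acid call for C57Bl6 against naive and 2 for C57Bl6 against RAG2KO, with 8 sterol calls for RAG2KO against naive. No paired analysis was possible for the SOX17OE lines because each has 1 library.

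Each value that changed sign belonged to a gene that was not called in that comparison, and the cause was not tested. Acat2 in C57Bl6 against naive was at -0.0057 with the size factors of DESeq2, -0.039 with upper quartile scaling, -0.0048 in the DESeq2 test, -0.023 in voom, -0.0029 with the compared groups alone, -0.0084 with the replicate block, -0.010 in the same 9 libraries without the block and -0.0032 with the length offset. Upper quartile scaling gave Nsdhl -0.024 in C57Bl6 against naive, Fasn 0.0064 in RAG2KO against naive, and Pmvk 0.032, Fdps 0.047, Me1 0.056 and Elovl6 0.034 for the SOX17OE lines. Without a filter Sqle had 0.0069 in C57Bl6 against RAG2KO. Voom gave Tm7sf2 -0.058, Sc4mol -0.017, Hsd17b7 0.038 and Srebf2 0.032 in C57Bl6 against naive, Acly -0.064 in RAG2KO against naive, Mvk 0.004 in C57Bl6 against RAG2KO and Me1 0.041 for the SOX17OE lines. As 2 samples of 1 group, the lines had Fdps at 0.017 and Me1 at 0.0039. The Rn45s covariate gave Mvk -0.080 in C57Bl6 against naive, Idi1 -0.015, Srebf1 0.28, Acly -0.13 and Fasn 0.018 in RAG2KO against naive, Fdps 0.0029, Sqle 0.033, Stard4 0.49 and Srebf1 -0.095 in C57Bl6 against RAG2KO, and Me1 0.22 and Elovl6 0.036 for the SOX17OE lines. The length offset gave Mvk -0.065 and Fasn 0.27 in RAG2KO against naive, Mvk 0.12, Fdps 0.064, Sqle 0, Ebp 0.0065 and Elovl6 -0.0048 in C57Bl6 against RAG2KO, and Stard4 0.0015, Me1 0.021, Fasn 0.073 and Elovl6 0.17 for the SOX17OE lines.

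Signs also changed with a library left out. The ranges of the log2 fold change in C57Bl6 against naive were -0.096 to 0.21 for Mvk, -0.057 to 0.0033 for Fdft1, -0.13 to 0.0027 for Hsd17b7, -0.072 to 0.033 for Acat2, -0.045 to 0.27 for Tm7sf2, -0.038 to 0.073 for Nsdhl, -0.27 to 0.13 for Srebf2, -0.016 to 0.14 for Sc4mol, -0.011 to 0.14 for Cyp51 and -0.0089 to 0.15 for Scd1. In RAG2KO against naive they were -0.23 to 0.018 for Srebf1, -0.041 to 0.068 for Acly, -0.0044 to 0.15 for Mvk, -0.20 to 0.030 for Fasn, -9e-04 to 0.40 for Elovl6 and -0.0066 to 0.31 for Insig1. In C57Bl6 against RAG2KO they were -0.17 to 0.14 for Mvk, -0.19 to 0.13 for Stard4, -0.023 to 0.0094 for Sqle, -0.29 to 0.063 for Ebp and -0.24 to 0.080 for Lss. For the mean of the SOX17OE lines they were -0.25 to 0.23 for Fdps, -0.23 to 0.22 for Me1, -0.084 to 0.015 for Elovl6, -0.013 to 0.66 for Fdft1, -0.30 to 0.44 for Cyp51, -0.021 to 0.54 for Sc4mol, -0.036 to 0.79 for Sc5d, -0.27 to 0.34 for Insig1, -0.18 to 0.035 for Acat2, -0.23 to 0.17 for Pmvk, -0.28 to 0.036 for Mvd and -0.35 to 0.15 for Sqle.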
